A study of Mus musculus with 30 samples.

Results

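Pericytes sorted from mouse colon were compared with the fibroblasts (FB) sorted from the same organ by bulk RNA-seq. The comparison takes in 15 of the 30 libraries of the series, picked by their sample labels: 3 libraries of pericytes and 12 of FB, made up of 3 libraries from each of 4 FB populations. The labels speak of 3 mice and do not say which libraries share a mouse. According to the paper, subsets of both organs were sorted from the same mice. Populations may thus share mice, and libraries were treated as independent. Pericytes are the single colonic population of the series that is not FB, so the comparison sets them against the mean of the FB populations, each with equal weight. The series profiles mesenchymal cells of the small intestine and colon from untreated C57BL6/Nrj mice aged 8 to 10 weeks. Cells came from the lamina propria after Peyer's patches, muscle layer and epithelium had been taken off, and cells positive for hematopoietic lineage, endothelial (CD31), BP3, EpCAM or neural adhesion markers were gated out. Pericytes were gated as PDGFRα-ESAM-1+PDPN-. All 4 FB populations were ESAM-1- and PDPN+: CD81+ FB (PDPN intCD34+CD90-), CD90+ FB (PDPN hiCD34+CD90+), Fgfr2+ FB (PDPN hiCD34+CD90-) and PDGFRα hi FB (CD34-, written PDGFRahi in the labels). Smooth muscle cells (SMCs) were sorted from the small intestine and not from the colon, so no colonic SMC level stands beside the pericyte values.

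Pericytes are mural cells that lie within the basement membrane of capillaries and small venules, against the endothelium. Endothelial PDGF-B acting on PDGFRβ recruits them, Notch ligands on the endothelium sustain their differentiation through NOTCH3, and they share much of their contractile machinery with the SMCs of arterioles. Fibroblasts of the lamina propria lie outside the vessel wall, where they build the interstitial matrix and send BMP, WNT and cytokine signals to the epithelium and to immune cells.

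The estimated counts of a library summed to between 6865683 and 19096945 over the 15 colonic libraries (median 9785938) and to 9225411, 9314458 and 13866610 in the pericyte libraries. Levels are counts scaled to the size of the library (CPM), in replicate order for pericytes and as lowest, median and highest for the 12 FB libraries. A difference is the log2 level in pericytes minus the mean of the 4 FB log2 group means, with its standard error (SE), and a gene was called higher or lower at an adjusted p below 0.05 and an absolute log2 difference above 1.5. The fit gives each gene a common spread over all its libraries, so SE and p assume equal spread in every group.

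The label of the pericytes was checked against pericyte markers. *Rgs5* (ENSMUSG00000026678, chr1:169655501-169695813, build GRCm38), which encodes a regulator of G protein signalling widely used to mark pericytes, stood at 30051, 41833 and 26992 CPM in the pericyte libraries and at 23.6 to 520.2 CPM in the FB libraries (median 66.7). Every pericyte library was more than an order of magnitude above the highest FB library (log2 fold change 8.32, SE 0.26, adjusted p 1.32e-12). By mean TPM, a level that divides by transcript length, *Rgs5* ranked 4 in pericytes among the protein-coding genes matched to the annotation. *Cspg4*, the NG2 proteoglycan of the pericyte surface, measured 872, 1145 and 1041 CPM in pericytes and 6.77 to 153 CPM in the FB libraries (median 48.01), with no overlap (log2 fold change 4.29, SE 0.29, adjusted p 9.73e-09). The third marker, *Esam*, was part of the sort and is no finding: its levels were 94.96, 213 and 108 CPM in pericytes and 0 to 1.36 CPM in the FB libraries (median 0.108). Likewise the gate genes *Pdgfra*, *Pdpn* and *Cd34* were lower in pericytes, with log2 differences of -6.55, -7.45 and -4.74. Of the 12 genes behind the sorting antibodies 11 were tested, 2 were called higher and 4 lower, and the transcript of the epithelial gate *Epcam* had 0 counts in pericytes.

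The pericyte libraries stood apart from all FB libraries. On the first principal component, which held 27.6% of the variance, they lay between -216 and -163 while the FB libraries lay between 25.3 and 57.3. Correlations of log2 levels across genes ranged from 0.769 to 0.797 among the pericyte libraries, and the highest correlation of a pericyte library with a library of another group was 0.739. Spread between replicates, as the biological coefficient of variation, was widest in pericytes (1.06), followed by CD81+ FB (0.932), Fgfr2+ FB (0.725), PDGFRα hi FB (0.551) and CD90+ FB (0.535). Genes are not independent replicates, and these correlations are a description.

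Pericytes differed from the pooled FB in 2728 of 16456 genes tested. Of these, 1481 were called higher (9.00% of those tested) with a median fold of 8.32, and 1247 lower (7.58%) with a median fold of 15.02, while the median log2 difference over all tested genes was 0.05. The shares of 9.00% and 7.58% apply beside the counts of every gene list below. In 804 genes (4.89%) all 3 pericyte libraries lay above all 12 FB libraries, and in 942 genes (5.72%) they lay below. Among the genes called higher, 619 had no overlap between the groups, and among those called lower, 758. Transcripts of 147 genes called lower had 0 counts in every pericyte library, and 6 genes called higher had 0 counts in every FB library. For such genes the fold is a lower bound against a floor of 3 counts in each library, and for genes with 1 to 3 counts it is a ratio with its 95% counting interval. Floors and intervals cover counting error only. In bulk samples, fewer cells of a type and less RNA per cell cannot be told apart.

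*Scn4b* was among the 15 largest non-overlapping increases. This gene, an accessory subunit of voltage-gated sodium channels, had 33.7, 65.97 and 25.02 CPM in pericytes and a total of 1 count in the FB libraries, a ratio of 6063-fold (95% counting interval 1088 to 239481). *Olfr558*, a G protein-coupled receptor of the olfactory receptor family, measured 629.6, 1107 and 557 CPM against 0 to 0.815 CPM in the FB libraries (median 0.278). Its relative *Olfr78*, known from the carotid body and from vessels, reached 218, 146 and 159.5 CPM and no more than 0.896 CPM in any FB library. Both receptors were thus well above all FB libraries in each pericyte library, with log2 differences of 11.29 (SE 0.40) and 10.83 (SE 0.67). The same 15 held the gap junction gene *Gja4* (11.14), the laminin chain *Lamc3* (10.46), the LIM-domain gene *Fhl5* (10.59), the actin-binding gene *Xirp1* (10.36) and the receptor *Notch3* (10.33), each given with its log2 difference, and also *Map3k7cl* (10.73), *Vsig2* (54.7, 34.03 and 39.3 CPM in pericytes, at most 0.0941 CPM in FB) and *Nrarp* (10.43), of which *Nrarp* shares 78.2% of its 31-base stretches with other genes and is uncertain. *Ybx2*, *Stac* and *Tmem273*, with few counts in FB, were also among them, at ratios of 2537, 2086 and 3189.8, whose intervals start at 868, 714 and 572. These intervals leave out the spread between pericyte libraries, which held 5.83, 87.3 and 35.5 CPM of *Stac* and 3.33, 58.8 and 3.44 CPM of *Tmem273*. Of these 15 genes, 7 fall below the filter on low counts once a pericyte library is left out, because 3 libraries must pass it.

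Among the 15 largest decreases were secreted signals and receptors found in all FB populations. *Ly6c1*, a membrane-anchored antigen, had 0 counts in pericytes and 16.4 to 149.7 CPM in the FB libraries (median 32.04), at least 146-fold lower. At least 83.7-fold lower was *Edn3*, which encodes endothelin-3, and at least 39.2-fold lower the ciliary neurotrophic factor receptor *Cntfr*. The same bound was 42.3 for *Rtl3*, 36.2 for *Lgi4*, 30.2 for *Car13*, 29.9 for *Pla2g15*, 27.5 for *Naprt*, 25.7 for *Prrx2* and 23.5 for *Syn1*. *Fam205a4*, also at 0 in pericytes, shares all of its 31-base stretches with other genes and is uncertain. With 1 or 2 counts in pericytes, *Prokr1*, a prokineticin receptor, differed by 1137-fold (95% counting interval 315 to 9388). The complement lectin pathway protease *Masp1* differed by 1133-fold (95% counting interval 203 to 44742), *Flrt3* by 1402-fold (95% counting interval 252 to 55376) and *Lrrn2* by 1275-fold (95% counting interval 229 to 50344).

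**Figure D1:**
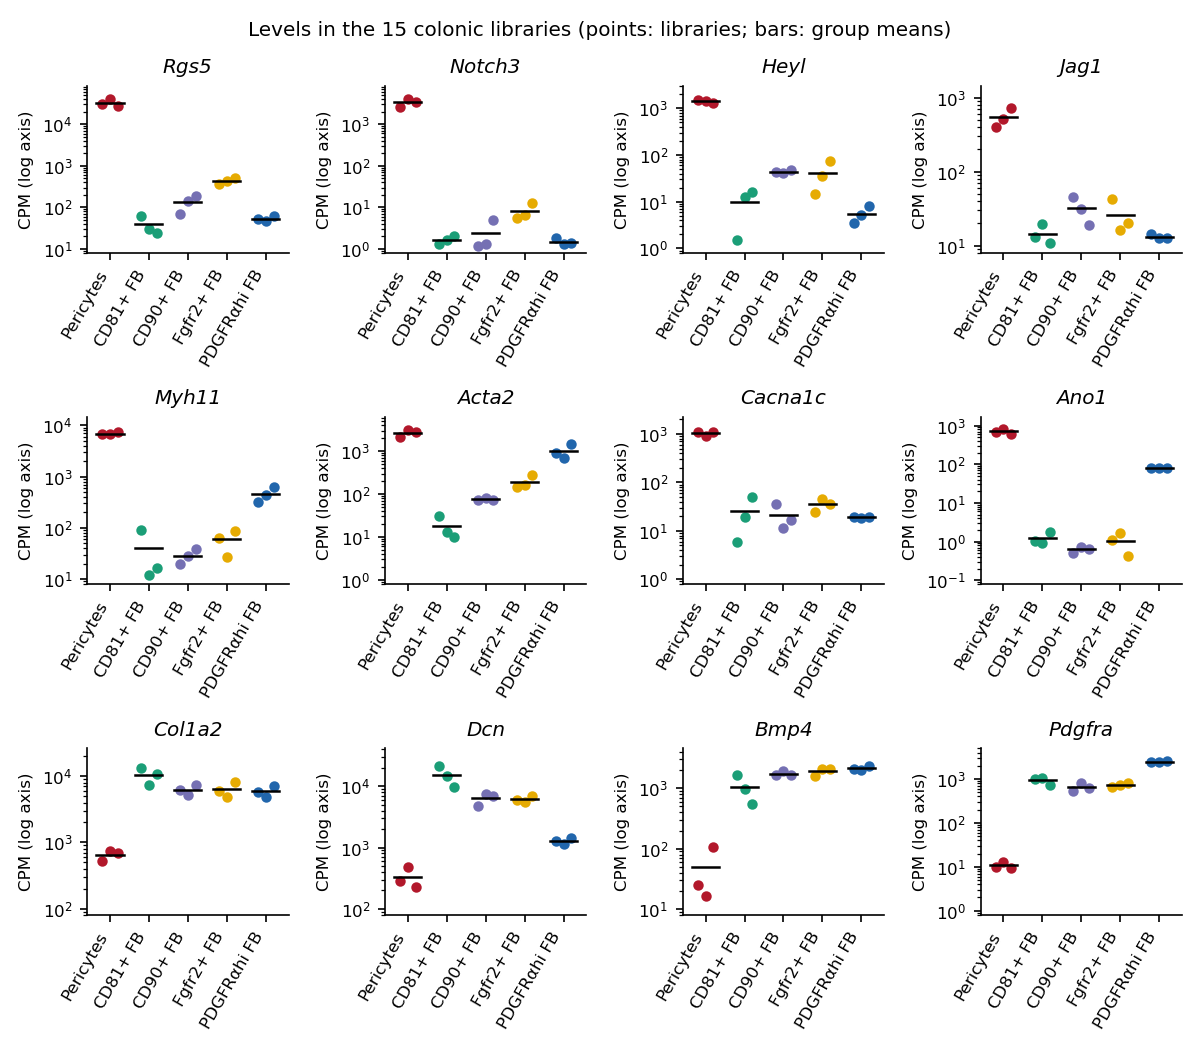
Levels of 12 genes in the 15 colonic libraries, in CPM on a log axis, with 1 point per library and a bar at the mean of each group. Pericyte libraries lie above all FB libraries for the mural, contractile, channel and Notch genes and below them for *Col1a2*, *Dcn*, *Bmp4* and *Pdgfra*, and *Acta2* comes closest to the pericyte level in PDGFRα hi FB.

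Genes of mural cell identity were mostly higher in pericytes. Of 26 measured members 22 were called higher (9.00% over all tested genes), the gate gene *Esam* among them, and 4 did not pass the test. The median log2 difference of the 26 was 5.12 against 0.05 over all tested genes. In 21 all pericyte libraries exceeded all FB libraries (4.89% over all tested genes). *Anpep* (368, 462 and 173 CPM against 209 to 771 in FB) and *Cd248* (106, 373 and 241 against 11.3 to 2358) overlapped with FB. Against CD81+ FB alone 1 member was called lower. *Pdgfrb*, the receptor for PDGF-B, measured 2125, 2445 and 1246 CPM in pericytes and 137 to 247 CPM in the FB libraries (median 178). FB thus also carried *Pdgfrb* RNA, at a level that did not overlap with that of pericytes (log2 fold change 3.42, SE 0.20, adjusted p 2.87e-09). *Mcam*, the adhesion molecule CD146, had 891, 1246 and 1090.4 CPM in pericytes and 0.6504 to 11.8 CPM in the FB libraries (median 4.45). *Vtn*, which encodes vitronectin, had 125, 111 and 111 CPM in pericytes and 0 to 4.89 CPM in the FB libraries (median 0.102). Vitronectin RNA was at near-equal levels in the 3 pericyte libraries and close to 0 in most FB libraries (log2 fold change 9.21, SE 0.77, adjusted p 4.61e-07). *Rgs4*, a relative of *Rgs5*, differed by 9.39 (SE 0.29), the connexin gene *Gjc1* by 2.72 (SE 0.30) and *Higd1b* by 5.33 (SE 1.16). The forkhead factor *Foxs1* had 50.1, 9.34 and 6.22 CPM in pericytes and 0 in all but a PDGFRα hi FB library with 0.857 CPM. Since *Vtn* was at 0 in Fgfr2+ FB and *Higd1b* in PDGFRα hi FB, the size of their log2 differences depends on the model's prior count.

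Contractile genes of smooth muscle were mostly higher in pericytes, by a wide margin. Of 28 contractile genes 22 were called higher and 6 did not pass the test, with a median log2 difference of 2.87, and their summed level was 29078, 32606 and 34815 CPM in pericytes against 2252 to 13282 in FB libraries. *Myh11*, the heavy chain of smooth muscle myosin, measured 6649, 6764 and 7300.1 CPM in pericytes and 12.1 to 625 CPM in the FB libraries (median 51.8). Its highest FB values were in PDGFRα hi FB, still far below the pericyte libraries (log2 fold change 6.56, SE 0.40, adjusted p 3.6e-09). *Acta2*, smooth muscle actin, measured 2120.3, 3146 and 2821 CPM in pericytes and 9.83 to 1437 CPM in the FB libraries (median 113), with a log2 difference of 4.43 (SE 0.26, adjusted p 2.19e-09), and was again highest among FB in PDGFRα hi FB. *Myh11* and *Acta2* were above all FB libraries in each pericyte library. The intermediate filament gene *Des* (6.30), calponin *Cnn1* (6.05), leiomodin *Lmod1* (4.80), the enteric actin *Actg2* (4.70), myosin light chain kinase *Mylk* (4.14), the regulatory light chain *Myl9* (3.86) and the transcription factor *Mef2c* (5.89) were also higher, given with log2 differences. Tropomyosin *Tpm1* (2.33) and caldesmon *Cald1* (1.90), which FB also make, were higher by less.

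Ion channels that set the membrane potential and calcium entry of mural cells were mostly higher in pericytes. Of 24 tested, 18 were called higher and 6 did not pass, with a median log2 difference of 3.82. Against PDGFRα hi FB alone 14 members were called higher and 1 lower. *Kcnma1* (15.9, 2.58 and 21.1 CPM in pericytes) and *Cacna1d* (73.8, 10.3 and 77.6 CPM) lay within the range of the FB libraries. *Abcc9* and *Kcnj8* encode the subunits of the vascular ATP-sensitive potassium channel. *Abcc9* stood at 1967, 2544 and 1159 CPM in pericytes and 23.9 to 219.9 CPM in the FB libraries (median 84.8). *Kcnj8* stood at 341, 879 and 340.2 CPM and 1.19 to 77.03 CPM in the FB libraries (median 22.9). For each subunit the lowest pericyte library was above the highest FB library (log2 fold change 4.46, SE 0.25, adjusted p 1.61e-09 for *Abcc9*; 4.68, 0.52 and 4.19e-06 for *Kcnj8*). The pore of the L-type calcium channel, *Cacna1c*, measured 1091, 899 and 1120.3 CPM in pericytes and 5.802 to 50.8 CPM in the FB libraries (median 19.3). *Ano1*, a calcium-activated chloride channel, measured 699.6, 833 and 602 CPM in pericytes and 0.434 to 81.5 CPM in the FB libraries (median 1.06). Both were well separated from FB, with log2 differences of 5.43 (SE 0.37) and 7.98 (SE 0.26), the latter 5.14 when the 12 FB libraries are taken as 1 group. Also called higher were the T-type channel *Cacna1h* (3.77), the ryanodine receptor *Ryr2* (4.26), *Trpc6* (5.81), the potassium channel subunit *Kcne4* (3.55) and, with a wide spread among pericyte libraries, the potassium channel *Kcna5* (9.32), at 6.98, 34.8 and 83.2 CPM.

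Receptors and effectors of vasoactive signals moved in both directions. Of 40 listed genes 38 were tested, 21 were called higher (9.00% over all tested genes) and 5 lower (7.58%), with a median log2 difference of 2.04. The lower count was 3 when pericyte replicate 1 or 3, CD90+ replicate 2, Fgfr2+ replicate 3 or PDGFRα hi replicate 2 was left out, and 2 with the 12 FB libraries as 1 group. Receptors for noradrenaline were among the higher ones: *Adra2a* measured 146, 321 and 73.9 CPM in pericytes and 0 to 1.69 CPM in the FB libraries (median 0.07904). *Adra1a* measured 185, 157 and 157 CPM in pericytes and 0.123 to 10.1 CPM in the FB libraries (median 1.36). Neither receptor overlapped between the groups (log2 differences 10.08, SE 0.77, and 6.35, SE 0.64). The ATP-gated channel *P2rx1* measured 34.2, 39.2 and 54.3 CPM in pericytes and 0 to 5.57 CPM in the FB libraries (median 0.0235), with 0 in Fgfr2+ FB, and was called higher. The sphingosine-1-phosphate receptor *S1pr3* (4.71), the prostacyclin receptor *Ptgir* (5.13) and *Adra2b* (3.03) were higher too, given with log2 differences. On the relaxing side, the subunits of the nitric oxide receptor guanylate cyclase *Gucy1a1* (2.01), *Gucy1b1* (3.21) and *Gucy1a2* (3.65), the cyclic GMP-dependent kinase *Prkg1* (3.29) and the phosphodiesterase *Pde3a* (2.72) were higher. Lower in pericytes were the prostaglandin E2 receptor *Ptger4*, at 12.1, 0.246 and 2.49 CPM against 31.6 to 105 CPM in the FB libraries (median 63.7), and the receptor for C-type natriuretic peptide *Npr2*, at 24.99, 5.04 and 21.8 CPM against 42.8 to 188 CPM in the FB libraries (median 96.05). These decreases had log2 differences of -3.61 (SE 0.78) and -2.51 (SE 0.50).

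Notch pathway genes called higher in pericytes included receptors, ligands and targets. Of 20 genes tested, 9 were called higher, 1 lower and 10 neither, with a median log2 difference of 2.05. *Notch3* (ENSMUSG00000038146, chr17:32120820-32166852), the Notch receptor of mural cells, measured 2577, 4167 and 3369 CPM in pericytes and 1.18 to 12.7 CPM in the FB libraries (median 1.75). It was separated from FB by more than any other receptor of its family (log2 fold change 10.33, SE 0.34, adjusted p 1.41e-12), and *Notch1* (4.12) was higher as well. Of the ligands, *Jag1* measured 405, 512 and 716 CPM in pericytes and 10.8 to 45.03 CPM in the FB libraries (median 17.8), and the ligand *Dll4*, known best from endothelium, measured 31.2, 8.84 and 39.9 CPM and 0 to 0.6397 CPM in the FB libraries (median 0). Both ligands were above all FB libraries and called higher, *Jag1* with a log2 difference of 4.79 (SE 0.28), and *Dll4* with CD81+ and PDGFRα hi FB at 0, so that the size of its difference depends on the model's prior count. The ligand *Dll1* went the other way, with 1 count in the pericyte libraries together against 1.21 to 21.7 CPM in the FB libraries (median 5.83), a ratio of 281-fold (95% counting interval 50.4 to 11085). Of the targets, *Hey2* measured 117, 157 and 142 CPM in pericytes and 0 to 1.46 CPM in the FB libraries (median 0.07103). *Heyl* measured 1506, 1463 and 1272 CPM in pericytes and 1.53 to 76.1 CPM in the FB libraries (median 15.3). Both repressors were above all FB libraries in every pericyte library, with log2 differences of 9.82 (SE 0.76) and 6.33 (SE 0.42). The receptor *Notch2* (-0.67) and the target *Hes1* (1.01), whose libraries overlapped between the groups, were not called.

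Promoters of the contractile, mural and Notch genes are shown because members of these lists were called higher, with motifs known from smooth muscle and Notch targets in capitals. RefSeq windows (build GRCm38.p6) run from 250 bases before to 50 after the start, and were searched on both strands for the CArG box, bound by SRF, and for GTGGGAA, bound by RBPJ. A match on the opposite strand of a window appears as TTCCCAC. Members without a window are left out of the counts. A CArG box lies in the windows of 488 of 27025 genes with a window (1.81%). It lies in 1 of 18 contractile genes called higher (5.56%) and in 2 of 6 not called higher (33.3%), *Srf* and *Vcl*. Of the mural genes it lies in 1 of 14 called higher (7.14%) and 0 of 3 not called higher. Among Notch genes it lies in 0 of 7 called higher and 0 of 9 not called higher. GTGGGAA lies in the windows of 1958 of 27025 genes (7.25%), in 1 of 7 Notch genes called higher (14.3%) and 1 of 9 not called higher (11.1%), in 2 of 14 mural genes called higher (14.3%) and 1 of 3 not called higher (33.3%), and in 0 of 18 contractile genes called higher and 1 of 6 not called higher (16.7%). A match describes the letters in these windows. In *Myl9* the box starts 161 bases before the start of the gene. *Hey2* holds GTGGGAA at 2 places, and *Gucy1a1* at 3.
Myl9 promoter, chr2:156775214-156775513 (+ strand): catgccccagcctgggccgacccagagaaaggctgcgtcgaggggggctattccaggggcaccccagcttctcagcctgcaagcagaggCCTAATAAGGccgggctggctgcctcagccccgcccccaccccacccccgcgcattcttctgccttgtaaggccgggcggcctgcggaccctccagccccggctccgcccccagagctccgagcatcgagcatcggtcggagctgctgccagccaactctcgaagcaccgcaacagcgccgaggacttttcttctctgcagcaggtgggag
Hey2 promoter, chr10:30842734-30843033 (- strand): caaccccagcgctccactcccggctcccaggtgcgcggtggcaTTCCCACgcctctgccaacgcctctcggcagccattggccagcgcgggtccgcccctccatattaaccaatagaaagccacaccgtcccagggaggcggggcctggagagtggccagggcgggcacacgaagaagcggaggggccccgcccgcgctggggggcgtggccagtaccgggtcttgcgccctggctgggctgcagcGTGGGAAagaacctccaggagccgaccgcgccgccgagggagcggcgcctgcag
Gucy1a1 promoter, chr3:82145024-82145323 (- strand): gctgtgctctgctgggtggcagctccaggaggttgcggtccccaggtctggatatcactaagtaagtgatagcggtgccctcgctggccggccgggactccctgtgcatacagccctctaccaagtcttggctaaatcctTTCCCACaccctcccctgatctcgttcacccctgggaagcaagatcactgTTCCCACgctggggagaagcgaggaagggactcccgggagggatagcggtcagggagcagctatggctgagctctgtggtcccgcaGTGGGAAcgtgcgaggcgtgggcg

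Signals that pass between pericytes, endothelium and FB divided between the populations. Of 7 PDGF ligands and receptors 4 were called higher and 2 lower, the gate gene *Pdgfra* among the latter, with a median log2 difference of 3.42. The lower count was 1 when pericyte replicate 1 or 3, CD81+ replicate 1, CD90+ replicate 2 or 3, Fgfr2+ replicate 1 or 2, or PDGFRα hi replicate 1, 2 or 3 was left out. Ligand gene *Pdgfa* measured 225, 186 and 184 CPM in pericytes and 4.199 to 131 CPM in the FB libraries (median 12.05), so that pericytes were above all FB libraries (log2 fold change 3.68, SE 0.40, adjusted p 3.38e-06). The receptor-like gene *Pdgfrl* (3.79) was higher by a similar log2 difference. Among 21 angiogenic genes, 3 were called higher (9.00% over all tested genes) and 6 lower (7.58%), with a median log2 difference of -0.40. *Angpt2*, an angiopoietin that destabilises vessels, measured 124, 128 and 114 CPM in pericytes and 1.63 to 15.6 CPM in the FB libraries (median 7.26), again without overlap (log2 fold change 3.96, SE 0.47, adjusted p 7.74e-06). *Vegfa*, the main growth factor for endothelium, was lower, at 15.1, 3.32 and 18.8 CPM against 31.3 to 232 CPM in the FB libraries with a median of 64.8 (log2 fold change -2.73, SE 0.53, adjusted p 0.00135). The lymphatic growth factor *Vegfc* (-6.09) and the matrix protein *Thbs2* (-4.50) were lower too, as was the angiopoietin receptor *Tek* (-7.40).

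Basement membrane genes were called in both directions. Of 31 genes, 11 were called higher (9.00% over all tested genes) and 5 lower (7.58%), with a median log2 difference of 0.73. *Lamc3*, a laminin γ chain, measured 254, 487 and 280.4 CPM in pericytes and 0 to 2.12 CPM in the FB libraries (median 0.231). *Lama5*, the laminin α5 chain of vessel walls, measured 557, 324 and 475 CPM in pericytes and 0.184 to 189 CPM in the FB libraries (median 13.2). Both lay above every FB library, and *Lamb2* (2.39) and the proteoglycan agrin, *Agrn* (2.63), were higher as well. The laminin chains *Lama4* (-1.22), *Lamb1* (-1.46) and *Lamc1* (-0.74) lay below every FB library without being called, the second of them called lower under several alternatives. Laminin-binding integrin chain *Itga7* measured 110.1, 173 and 212 CPM in pericytes and 0 to 3.65 CPM in the FB libraries with a median of 0.129 (log2 fold change 8.73, SE 0.76, adjusted p 2.06e-07). *Itga8* (5.95, SE 0.55) and the collagen-binding *Itga1* (3.42, SE 0.35) were also higher. The linker nidogen-1, *Nid1*, was lower, at 479, 243 and 485 CPM against 858 to 4495 CPM in the FB libraries (median 1264), and so was collagen XV, *Col15a1* (-4.45). The type IV collagen chains *Col4a1* and *Col4a2* did not pass the test: *Col4a1* measured 1667, 1530.2 and 1233 CPM in pericytes and 743 to 1567 CPM in the FB libraries (median 1297), and *Col4a2* 1998, 2034 and 1869.7 and 723 to 2023 CPM in the FB libraries (median 1230.3).

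Interstitial matrix genes, the products that fill the space between cells, were mostly lower in pericytes. Of 38 genes 29 were called lower (7.58% over all tested genes) and 9 did not pass the test, with a median log2 difference of -3.20. In 26 every pericyte library lay below every FB library (5.72% over all tested genes). The summed level of the 38 was 11965, 14968 and 11502 CPM in pericytes and 60459 to 161795 CPM in FB libraries. *Col1a2*, a chain of type I collagen, measured 525, 729.7 and 702 CPM in pericytes and 4803 to 13355 CPM in the FB libraries (median 6625). *Dcn*, the collagen-binding proteoglycan decorin, measured 289, 490.4 and 225 CPM in pericytes and 1153 to 20848 CPM in the FB libraries (median 6406). Pericytes thus held RNA of both genes, at levels below all FB libraries (log2 fold change -3.40, SE 0.25, adjusted p 3.1e-08 for *Col1a2*; -3.95, 0.31 and 5.12e-08 for *Dcn*). The largest decreases of the list were those of *Efemp1* and *Mfap4*. *Efemp1*, a fibulin, measured 1.77, 1.597 and 2.34 CPM in pericytes and 348 to 1008 CPM in the FB libraries (median 630.3). *Mfap4*, a microfibril-associated protein, measured 3.54, 3.07 and 3.58 CPM in pericytes and 149 to 2964 CPM in the FB libraries (median 1374). Their log2 differences were -8.34 (SE 0.45) and -8.12 (SE 0.39). Fibronectin *Fn1* (-4.94), lumican *Lum* (-7.51), dermatopontin *Dpt* (-7.58), versican *Vcan* (-5.52) and collagen III *Col3a1* (-3.53) were lower too, given with log2 differences. *Sparc*, by length the most abundant gene of the list in pericytes, did not pass the test, at 4642, 5576 and 3701 CPM against 4341 to 26447 CPM in the FB libraries (median 10213).

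Fibroblast identity genes were mostly lower in pericytes. Of 25, of which 4 belong to the sort, 21 were called lower and 3 higher (0 higher with the 12 FB libraries as 1 group), with a median log2 difference of -4.74, or -4.53 with genes at 0 counts set to their bound. The stem cell antigen gene *Ly6a* measured 0.312, 1.47 and 7.75 CPM in pericytes and 289 to 869 CPM in the FB libraries (median 412). *Clec3b*, which encodes tetranectin, measured 0.312, 0.491 and 0.366 CPM in pericytes and 11.7 to 227 CPM in the FB libraries (median 101). Both were low in each pericyte library and present in each FB library (-7.03, SE 0.72, and -7.49, SE 0.49). The receptor *Fgfr2*, by which an FB population is named, was lower than in the pooled FB as well (-7.23, SE 0.58), and the alarmin *Il33* was -6.14 (SE 0.68). The 3 called higher were the gate gene *Thy1*, *Cd81* and *Procr*, each with pericyte values within the range of the FB libraries. *Procr* measured 529, 511 and 312 CPM in pericytes and 2.63 to 1148 CPM in the FB libraries (median 19.5), with its highest values in PDGFRα hi FB. *Cd81* measured 217, 204 and 174 CPM in pericytes, 278 to 445 CPM in CD81+ FB, 12.1 to 64.5 in CD90+ FB, 10.9 to 142 in Fgfr2+ FB and 3.92 to 15.6 in PDGFRα hi FB. *Thy1* measured 45.9, 135 and 246 CPM in pericytes and 0 to 254 CPM in the FB libraries (median 44.4). Their log2 differences were 3.61 (SE 0.32), 2.01 (SE 0.52) and 2.26 (SE 0.48), and the calls of *Cd81* and *Thy1* were also lost with PDGFRα hi FB out of the mean.

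Signals to the epithelium were mostly lower in pericytes. Of 33 BMP and WNT ligands and antagonists 31 were tested, 19 were called lower and 2 higher, with a median log2 difference of -2.69. With the 12 FB libraries as 1 group 12 were lower and 0 higher, and without pericyte replicate 2 the higher count was 1. *Bmp4*, a ligand that limits crypt growth, measured 25.5, 16.3 and 109 CPM in pericytes and 558 to 2324 CPM in the FB libraries (median 1809). *Wnt2b*, a WNT ligand that sustains crypts, measured 8.33, 20.1 and 14.3 CPM in pericytes and 75.4 to 942 CPM in the FB libraries (median 371). All pericyte libraries were below all FB libraries for both ligands (log2 fold change -5.03, SE 0.56, adjusted p 3.82e-06 for *Bmp4*; -4.44, 0.40 and 3.39e-07 for *Wnt2b*). WNT antagonists *Sfrp1* (-6.58) and *Dkk3* (-3.22) were lower too. Of 14 hedgehog pathway genes, which respond to the epithelium, 4 were called lower and 10 did not pass, with a median log2 difference of -1.33, or -1.20 at the bound. The higher count of 0 was 1 by DESeq2 and when each of 2 libraries was left out in turn. The receptor *Ptch1* measured 416, 374 and 279 CPM in pericytes and 493 to 2841 CPM in the FB libraries (median 1356), and the decoy *Hhip* 5.21, 6.39 and 18.2 CPM and 34.1 to 262 CPM in the FB libraries (median 66.1). Both hedgehog-binding proteins were lower in each pericyte library than in any FB library (-1.92, SE 0.30, and -2.93, SE 0.45).

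Immune mediators were called lower more often than genes over all, and higher about as often. Of 40 stromal complement, chemokine and cytokine genes 36 were tested, 13 were called lower and 4 higher (2 higher with the 12 FB libraries as 1 group), with a median log2 difference of -1.51. Over all tested genes 7.58% were called lower and 9.00% higher. Complement component *C3* measured 8.64, 7.37 and 10.97 CPM in pericytes and 29.6 to 15554 CPM in the FB libraries (median 951). The B cell chemokine *Cxcl13* measured 0.312, 0.123 and 0.0731 CPM in pericytes and 6.75 to 27.1 CPM in the FB libraries (median 12.4). For both, pericytes lay below all FB libraries (-6.67, SE 0.62, and -6.41, SE 0.92). Interleukin 15, *Il15* (-3.86), and the chemokine *Cxcl12* (-2.23) were lower as well. The ligands of the macrophage receptor CSF1R went in opposite directions. *Csf1* measured 83.1, 83.7 and 92.02 CPM in pericytes and 265 to 533 CPM in the FB libraries with a median of 396 (log2 fold change -2.16, SE 0.26, adjusted p 1.18e-05). *Il34* measured 41.5, 92.4 and 85.4 CPM in pericytes and 0.484 to 41.8 CPM in the FB libraries with a median of 5.12 (log2 fold change 3.91, SE 0.43, adjusted p 3.42e-06). *Il34* was higher in pericytes than in the FB mean, with a PDGFRα hi FB library reaching the lowest pericyte library.

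Transcription factors were called in both directions, more of them higher. Of 40 listed 38 were tested, 17 were called higher (11 with the 12 FB libraries as 1 group) and 5 lower, with a median log2 difference of 1.60. Over all tested genes 9.00% were called higher and 7.58% lower. *Epas1*, the hypoxia-inducible factor HIF-2α, measured 4122, 6567 and 4657 CPM in pericytes and 22.9 to 1041 CPM in the FB libraries (median 533). *Foxc1*, a forkhead factor needed for vessel and brain pericyte development, measured 17.6, 28.6 and 132 CPM and 0 to 0.678 CPM in the FB libraries (median 0.119). *Nr2f2*, the orphan nuclear receptor of venous identity, measured 842, 912 and 965 CPM and 23.9 to 328 CPM in the FB libraries (median 52.9). These factors did not overlap with FB (log2 differences 3.69, 8.66 and 3.60, SE 0.38, 0.82 and 0.44). *Ebf2* (6.89) and *Meox2* (4.64) were higher too. The zinc finger factor *Bnc2* was lower, with a log2 difference of -4.65 (SE 0.41).

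Paired subunits of the respiratory chain were mostly not called. Of 10 genes for paired subunits 8 were tested, 2 were called higher and 1 lower, with a median log2 difference of 0.03. *Cox4i2*, the hypoxia-inducible form of cytochrome oxidase subunit 4, measured 157, 394 and 133 CPM in pericytes and 0.0604 to 5.2995 CPM in the FB libraries (median 0.7295). *Ndufa4l2*, a relative of *Ndufa4*, measured 183, 163 and 43.5 CPM in pericytes and 0 to 5.74 CPM in the FB libraries (median 0.103). *Ndufa4* itself measured 0.729, 0.246 and 0.658 CPM in pericytes and 6.53 to 24.2 CPM in the FB libraries (median 17.7). None of these overlapped between the groups, with log2 differences of 8.07 (SE 0.60), 7.92 (SE 1.08) and -4.91 (SE 0.71).

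**Figure D2:**
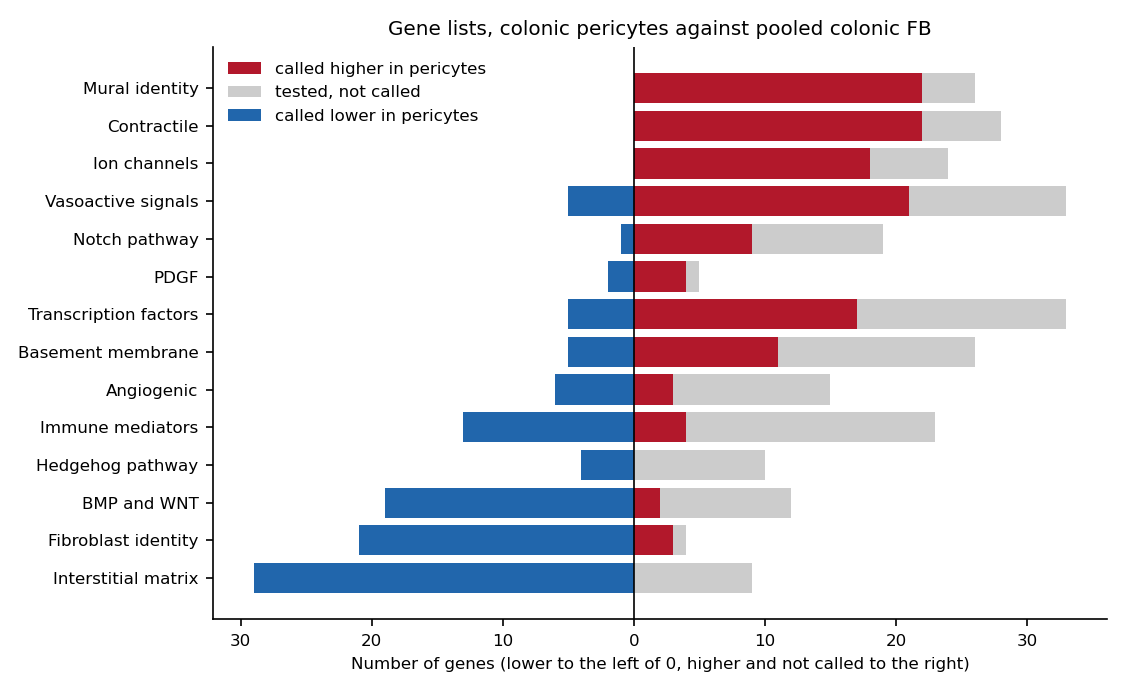
Members of each gene list called higher or lower in colonic pericytes than in pooled colonic FB, as bars of the number of genes to the right or left of 0, with tested members that were not called in grey. Mural, contractile and channel genes lie mainly on the right, and interstitial matrix, fibroblast identity, and BMP and WNT genes on the left.

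Markers of other cells were measured in the same libraries. Of 20 endothelial genes 16 were tested, 3 called higher, the gate gene *Esam* among them, and 1 lower. The 20 summed to 209.8, 400.5 and 298 CPM in pericytes and 72.3 to 416 in FB (median 102), led by *Esam*. In 2 of the 16 all pericyte libraries exceeded all FB libraries, and 4 of the 20 were at 0 in pericytes, among them *Cldn5*, *Sox18* and *Robo4*. Of 20 immune genes 11 were tested and 3 called higher (2 with the 12 FB libraries as 1 group, 1 without CD90+ replicate 2 or PDGFRα hi replicate 1), with 131, 176 and 88.6 CPM against 23.5 to 80.3, led by *Cd68*, which was not called without pericyte replicate 1 (log2 difference 1.60), and 9 at 0 in pericytes, among them *Cd3e*, *Cd79b* and *Tyrobp*. Of 18 epithelial genes 6 were tested and 2 called higher (0 by DESeq2, 1 with the 12 FB libraries as 1 group, 0 without pericyte replicate 2, 1 without CD90+ replicate 1 or Fgfr2+ replicate 2), with 34.8, 132 and 77.4 CPM against 8.13 to 134, led by *Slc26a3* per length, and 10 at 0, *Epcam* among them. Glial and neuronal genes (7 of 14 tested, 1 higher and 2 lower) summed to 85.1, 59.8 and 108 CPM against 478 to 1592, led by *Ncam1*, with *Gfap* at 0, and the higher call was lost with the 12 FB libraries as 1 group and without CD81+ replicate 1, Fgfr2+ replicate 2, PDGFRα hi replicate 1 or 2, or any CD90+ replicate. Genes of interstitial cells of Cajal (3 of 5 tested, 2 higher) summed to 798, 878 and 724 CPM against 3.69 to 299, most of it *Ano1*, while the defining *Kit* had 1 count in pericytes and *Hcn4* 0. Mesothelial genes (4 of 8 tested) summed to 11.97, 16.3 and 10.5 CPM against 4.35 to 89.5, led by *Rspo1*, with *Msln* at 0, and erythroid genes (1 of 6 tested) to 0.937, 4.2996 and 18.9 CPM against 0 to 7.61, led by *Alas2*. edgeR called 0 genes of either list, with 1 mesothelial and 0 erythroid genes at an unadjusted p under 0.05 and 0 by DESeq2. Genes of the intestinal muscle layer (11 of 12 tested, 6 higher and 2 lower, median 2.3) summed to 8669.7, 9511 and 9965 CPM against 1220.2 to 3114, led by *Myh11*, with *Pcp4* at 0 and 1 lower gene without pericyte replicate 3. The part of these cells in the results was not tested.

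Signs of handling and RNA quality moved with the groups in part. Early response genes, which dissociation can induce, were tested in 26 of 26 cases, with 10 called higher, 1 lower and a median log2 difference of 1.26. With the 12 FB libraries as 1 group 6 were higher and 0 lower. The lower count was 0 without pericyte replicate 1. It was 2 by DESeq2 and without CD81+ replicate 2, Fgfr2+ replicate 1 or PDGFRα hi replicate 2. Their sum was 11657, 15927 and 14813 CPM in pericytes and 2103 to 16130.0 CPM in FB libraries, so that the groups overlapped, and the most abundant was *Egr1*. *Nr4a1* measured 329.8, 391 and 432 CPM in pericytes and 21.9 to 306 CPM in the FB libraries (median 55.8). The transcripts coded by mitochondrial DNA took 3.33%, 4.12% and 5.17% of the pericyte counts and from 1.39% to 3.47% in FB libraries. Of 13 such genes tested 1 was called higher, a call lost without pericyte replicate 2, with a median log2 difference of 0.84 and a mean of 18966 TPM in pericytes for the most abundant, *mt-Co1*. All 13 had an unadjusted p under 0.05 by edgeR, against 5488 of 16456 genes over all. In 6 of the 13 every pericyte library lay above every FB library (4.89% over all tested genes). Their part in the results was not tested.

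Each FB population was also compared with pericytes on its own. These comparisons share the pericyte libraries, so each is given by itself and their gene sets are not compared. Against CD81+ FB 880 genes were called higher in pericytes (5.35%) and 1275 lower (7.75%), and against Fgfr2+ FB 673 higher (4.09%) and 1015 lower (6.17%). The higher count against Fgfr2+ FB fell to 488, 504 and 496 without Fgfr2+ replicates 1, 2 and 3. Against CD90+ FB 728 were higher (4.42%) and 1005 lower (6.11%), and the higher count fell to 480, 481 and 490 without CD90+ replicates 1, 2 and 3. Against PDGFRα hi FB 707 were higher (4.3%) and 949 lower (5.77%), and the higher count fell to 423, 449 and 459 without PDGFRα hi replicates 1, 2 and 3. By DESeq2 the higher and lower counts were 1355 and 1700 against CD81+ FB and 1184 and 1532 against Fgfr2+ FB. They were 1135 and 1407 against CD90+ FB and 1135 and 1404 against PDGFRα hi FB. Of the 28 contractile genes, 22 were called higher against CD81+ FB, 20 against CD90+ FB, 20 against Fgfr2+ FB and 12 against PDGFRα hi FB. *Acta2* ranged over 705 to 1437 CPM in PDGFRα hi FB, 9.83 to 30.2 in CD81+ FB, 70.9 to 82.5 in CD90+ FB and 144 to 273 in Fgfr2+ FB. Its difference from pericytes was not called against PDGFRα hi FB (log2 difference 1.43, adjusted p 0.0222), and *Myh11* was called there (3.92, adjusted p 0.000468). Whether the FB populations differ from each other in these genes was not tested. *Rgs5* differed by 9.75, 7.98, 6.26 and 9.28 from CD81+, CD90+, Fgfr2+ and PDGFRα hi FB, and *Col1a2* by -3.99, -3.21, -3.24 and -3.16.

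The gap between pericytes and FB was wider in the colon than in the small intestine for part of the contractile genes. The difference of the differences was tested with the 3 pericyte and 9 FB libraries of the small intestine, where the FB are CD34+, Fgfr2+ and PDGFRα hi. Of 17404 genes tested, 311 had a colonic difference called higher (1.79%) and 370 a lower one (2.13%). These counts were 815 and 671 without small intestinal pericyte replicate 3, and 945 and 1077 by DESeq2. Of 28 contractile genes 10 had a higher colonic difference, while of 38 interstitial matrix genes 2 had a higher and 11 a lower one. *Mylk* measured 3130.3, 3449.6 and 3813 CPM in colonic pericytes and 2057 to 2869.8 CPM in those of the small intestine, and 25.5 to 1449 CPM in the FB libraries (median 149) of the colon. In small intestinal FB it ranged over 316 to 356 CPM (CD34+), 802 to 856 CPM (Fgfr2+) and 1947 to 2497 CPM (PDGFRα hi). *Myh11* measured 6649, 6764 and 7300.1 CPM in colonic and 1129 to 2061 CPM in small intestinal pericytes, and 12.1 to 625 CPM in the FB libraries (median 51.8) of the colon. In CD34+, Fgfr2+ and PDGFRα hi FB of the small intestine it ranged over 39.2 to 51.5, 217 to 318 and 1103 to 1997 CPM. The colonic difference exceeded the small intestinal by 2.64 for *Mylk* (SE 0.34, adjusted p 5.53e-05) and by 3.96 for *Myh11* (SE 0.60, adjusted p 0.000303) on the log2 scale. Matrix genes with a more negative colonic difference included *Fn1* (-2.99, SE 0.43, adjusted p 0.000175) and *Col3a1* (-1.92, SE 0.36, adjusted p 0.002704). The FB populations of the organs are not matched in number, and CD81+ FB of the small intestine were sorted together with Igfbp5+ FB, as the CD34+ FB.

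**Figure D3:**
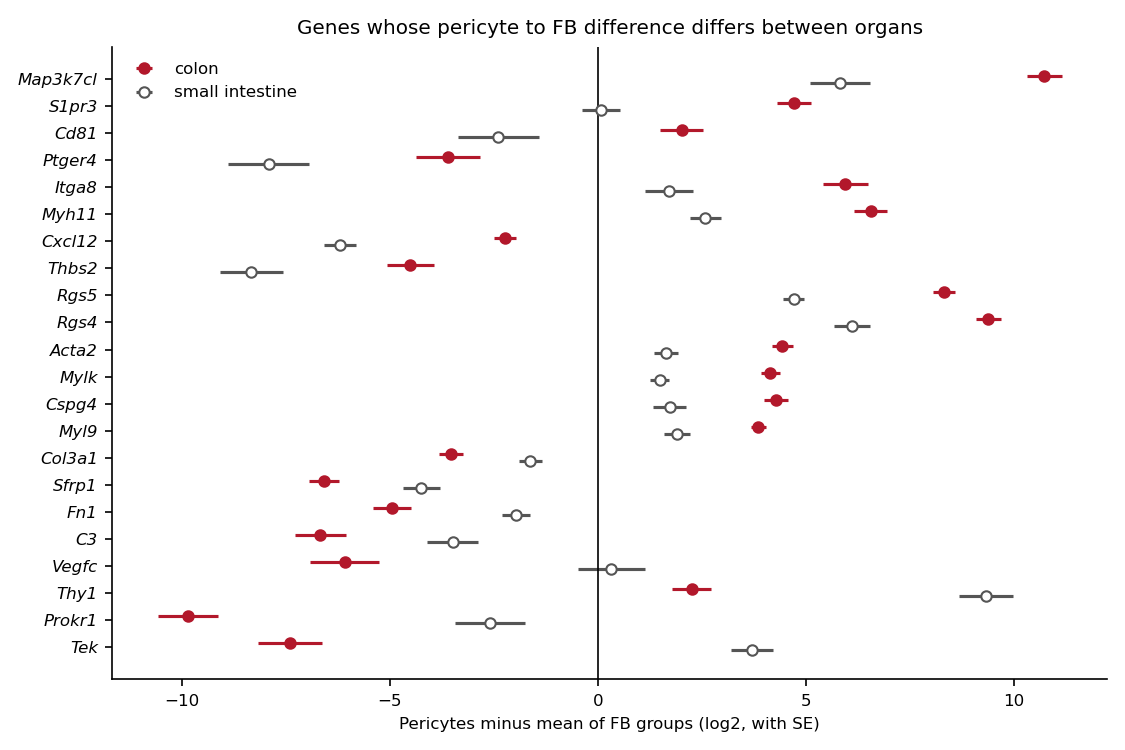
Log2 difference between pericytes and pooled FB in the colon (filled) and in the small intestine (open), with SE bars. Shown are the 22 genes named as called higher or lower whose difference of differences was called and which have counts in every group. *Myh11* and *Mylk* lie further from 0 in the colon than in the small intestine.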

How the data were processed

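Transcript abundances of the 15 colonic and 12 small intestinal libraries used came from kallisto (0.42.5), run by the authors after FastQC (0.11.2) and Trim Galore (0.4.0) on 50 bp single reads of amplified RNA. The deposited values are estimated counts and TPM for 98492 transcripts. Estimated counts of the 97116 transcripts matched to GENCODE annotation were summed to 32342 genes and rounded. A gene was tested when 3 or more libraries of the fit held 6 or more of its counts, with edgeR (4.0.16, R 4.3.3; limma 3.58.1), TMM normalization and a quasi-likelihood test of group means, with Benjamini-Hochberg adjustment over all genes tested. CPM use TMM factors over all 30 libraries, and TPM were recomputed over matched genes. Genes with 50% or more of their 31-base stretches in other genes are called uncertain. Named genes are the markers and gate genes, the 15 largest non-overlapping called protein-coding changes in each direction with at least 30 counts in every pericyte library (for decreases, in every library of at least 1 FB population), and members of 26 lists, of which 491 genes 435 were tested, 138 called higher and 106 lower. Members and lists were chosen with earlier results of these data known. Alternatives were DESeq2 (1.42.0), other scalings and filters, no or a larger fold threshold, length-scaled counts, robust dispersion, a replicate block, all 30 libraries in 1 model, other weights of the FB groups, and leaving out each library. Data of the study from single cells or flow cytometry were left aside.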

Additional observations from a re-analysis of the deposited data

Results flagged for a closer look

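For 26 of the genes named above as called higher or lower, the difference between pericytes and FB itself differed between colon and small intestine (edgeR test of the difference of differences). The values here are the colonic minus the small intestinal difference on the log2 scale. Among mural and contractile genes, it was 3.60 for *Rgs5*, 3.25 for *Rgs4*, 2.55 for *Cspg4*, 2.78 for *Acta2*, 3.96 for *Myh11*, 1.94 for *Myl9* and 2.64 for *Mylk*. Of the 26 mural genes in all, 3 had a higher and 4 a lower colonic difference. *Map3k7cl*, of the largest increases, gave 4.89. *Rgs5* ranged over 26992 to 41833 CPM in colonic and 21082 to 37270.4 CPM in small intestinal pericytes, over 23.6 to 520.2 CPM in colonic FB, and over 3429 to 4076, 1444 to 1908 and 150.4 to 349 CPM in CD34+, Fgfr2+ and PDGFRα hi FB of the small intestine. Among receptors, it was 4.62 for *S1pr3*, 4.23 for *Itga8*, 11.60 for *P2rx1*, 4.28 for *Ptger4*, -7.26 for *Prokr1* and -11.10 for *Tek*. The last of these stood at 0 to 0.737 CPM in colonic pericytes and at 61.8 to 185 CPM in those of the small intestine. Matrix and secreted proteins gave -1.92 for *Col3a1*, -2.99 for *Fn1*, 3.82 for *Thbs2*, -2.36 for *Sfrp1*, 3.95 for *Cxcl12*, -3.19 for *C3* and -6.42 for *Vegfc*. *Cxcl12* was lower than in FB in both organs, at 127 to 174 CPM in colonic and 6.78 to 18.3 CPM in small intestinal pericytes. The FB identity genes gave 4.39 for *Cd81* and -7.10 for *Thy1*, and the call of *Cd81* was lost with all 30 libraries in 1 model and without any of 14 libraries in turn, among them colonic pericyte replicates 1 and 2 and small intestinal pericyte replicates 1 and 3. The values of -12.10 for *Ly6c1*, -10.49 for *Pla2g15* and -10.70 for *Syn1* come from genes at 0 counts in colonic pericytes, and that of *P2rx1* from a gene at 0 in colonic Fgfr2+ FB, so their size depends on the model's prior count. Without small intestinal pericyte replicate 2 the calls of *Ly6c1*, *Prokr1*, *Pla2g15* and *Sfrp1* were lost, without small intestinal pericyte replicate 1 that of *C3*, and without colonic pericyte replicate 1 that of *Ptger4*. That of *Itga8* was lost with length-scaled counts, and those of *Myl9*, *Col3a1* and *Sfrp1* with a fold threshold of 2.5.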

How the results depend on the processing

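All 136 called genes named above kept their direction under every alternative that tested them, and their call under each but a fold threshold of 2.5 (11 lost), the FB as 1 group (3 lost, *Thy1*, *Cd81* and *Procr*), PDGFRα hi FB out of the mean (2 lost, *Thy1* and *Cd81*), all 30 libraries in 1 model (1 lost, *Cd81*) and leaving out a library (1 lost, *Cd68*). DESeq2 gave no adjusted p for 4 of them (*Myh11*, *Kcnj8*, *Tmem273* and *Edn3*). The pooled counts of 1481 higher and 1247 lower were 1479 and 1780 by DESeq2, 1550 and 1225 with RLE, 1266 and 1341 with upper-quartile scaling, 1891 and 1301 with no filter, and 1109 and 1190 with the FB as 1 group. Leaving out each library gave 1231 to 1518 higher and 1105 to 1331 lower. A replicate block gave 1085 and 1164. Same-numbered libraries did not pair (mean r 0.00905 over 30 pairs, highest 0.0845), although 9 of 15 libraries correlated best with their own number. A fold threshold of 2.5 left 937 higher, by construction. DESeq2 called 3055 genes against CD81+ FB (2155 by edgeR), 2542 against CD90+ FB (1733), 2716 against Fgfr2+ FB (1688), 2539 against PDGFRα hi FB (1656) and 2022 between organs (681), and the cause was not tested. Leaving out each library gave 485 to 1486 between organs, and a replicate block gave 506. *Rspo1*, not called, had a log2 difference of 0.18 with CD81+ FB out of the mean and -1.83 to 0.22 without each library, and *Alas2*, not called, -1.75 to 2.2 without each library. Upper-quartile scaling shifted the median of all genes by -0.13. Wide spread between pericyte replicates and low counts in the lower group limit the precision of the largest folds.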

Other observations

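SMCs of the small intestine have no colonic counterpart among the libraries and enter none of the comparisons. The 28 contractile genes summed to a mean of 52316 CPM there, above the colonic pericytes, while the 26 mural genes summed to 6705 CPM, below them. *Actg2*, the enteric smooth muscle actin, ranged over 1348 to 2016 CPM in SMCs and 128 to 211 CPM in colonic pericytes, and *Hhip* over 2540.3 to 4568 and 5.21 to 18.2 CPM. *Notch3* ranged over 5.004 to 8.79 CPM in SMCs and 2577 to 4167 CPM in colonic pericytes. SMC replicate 3 had 17.6% of its counts in transcripts coded by mitochondrial DNA. Cell type and organ differ together here, and no difference was tested.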
